A study of Mus musculus with 15 samples.

Results

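RNA sequencing of whole liver compared old female mice that lacked S6K1 with wild-type mice of the same age. The comparison took all 10 old libraries of the 15 in the study: 5 from old S6K1 knockout mice (old KO, replicates 1, 2, 4, 5 and 6) and 5 from old S6K1 wild-type mice (old WT, replicates 1, 4, 5, 7 and 10), as the sample titles name genotype and age. Both groups were 600 days old, inbred on C57BL/6, and fed the same chow. Wild types and knockouts came from crosses of heterozygous parents. The other 5 libraries came from wild-type mice of 90 days (young WT); they entered the estimate of the spread, and their levels are given beside some genes. No young knockout liver was analysed here, so a difference between the old groups cannot be split into one present from youth and one acquired with age. The gene was disrupted in the germ line, so S6K1 was lost from all tissues throughout life and not from 1 liver cell type. Of 37991 gene identifiers in the count table, 14258 passed the filter on low counts, and all 14258 were tested.

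S6K1, encoded by Rps6kb1, is a serine/threonine kinase that mTORC1 activates when nutrients and growth factors are plentiful. It phosphorylates ribosomal protein S6 and factors of translation initiation, and mice without it are known to live longer. The liver sinusoids hold the resident macrophages of the liver, the Kupffer cells, which clear particles, senescent blood cells and bacterial products and answer them with complement, cytokines and interferon-inducible genes. In whole tissue, fewer cells of a type and less RNA per cell cannot be told apart.

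The old WT libraries held 27063911 to 31990482 counts on genes and the old KO libraries 21984658 to 27923739. The liver label held: 15 hepatocyte-defining genes together took 116181 to 164467 CPM (counts scaled to the library total) in old WT, and 139121 to 176780.1 CPM in old KO. By contrast, 8 of 12 pancreas acinar genes had no count in any old library. Xist, made from the inactive X chromosome, had 16654 to 28311 counts in each old library, the Y-linked Ddx3y and Kdm5d had 0, and Uty, also Y-linked, had 10 to 17. The second principal component of the 10 old libraries, with 19.5% of the variance, put every old WT library above 0 and every old KO library below 0. The first, with 24.5%, did not separate the genotypes.

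In old KO liver, 60 genes fell and 16 rose against old WT (edgeR quasi-likelihood test, Benjamini-Hochberg adjusted p under 0.05 over all 14258 genes). The counts depended on the method, with 217 lower and 88 higher by DESeq2 and 16 lower and 7 higher by limma voom. The 76 are 0.533% of the genes tested, and the 60 and the 16 are 0.421% and 0.112%. The 60 genes that fell had a median log2 fold change of −1.10 (−2.53 to −0.54) and the 16 that rose one of 1.05 (0.33 to 3.99), whereas the median of all genes tested was 0.00 and 49.8% of them were negative. For 73 of the 76 genes no old KO library overlapped an old WT library, as for 456 of all genes (3.2%). Exceptions were Cfp, Banp and mt-Tg. By direction, 296 of all genes (2.08%) had every old KO library below old WT and 160 (1.12%) had every one above, and an unadjusted p under 0.05 was reached by 969 lower (6.8%) and 692 higher genes (4.85%). The number of calls rested on single libraries. Dropping old WT 1, 4, 7 or 10 left 10, 9, 37 and 42 calls, dropping old KO 2, 4, 5 or 6 left 13, 14, 17 and 13, and dropping young WT 4 left 41. With 1 of the 15 libraries left out, all 76 genes kept their direction in each fit that tested them. Of these genes, 67 lost the call in at least 1 of these fits. Of the 76, 39 were called in at most 2 of the 10 fits that left out an old library, and Oas3, Cd274, Slc18a1 and Ces3b in none of them. The 9 called every time were Rps6kb1, Dhx40, Slfn8, Ccl9, Mmp27, Lrrc25, Csf2rb, Tmem86a and ENSMUSG00000093483. An annotated gene on the opposite strand overlaps 12 of the 76, and whether counting used strand is not given in the sources used here.

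**Figure D1:**
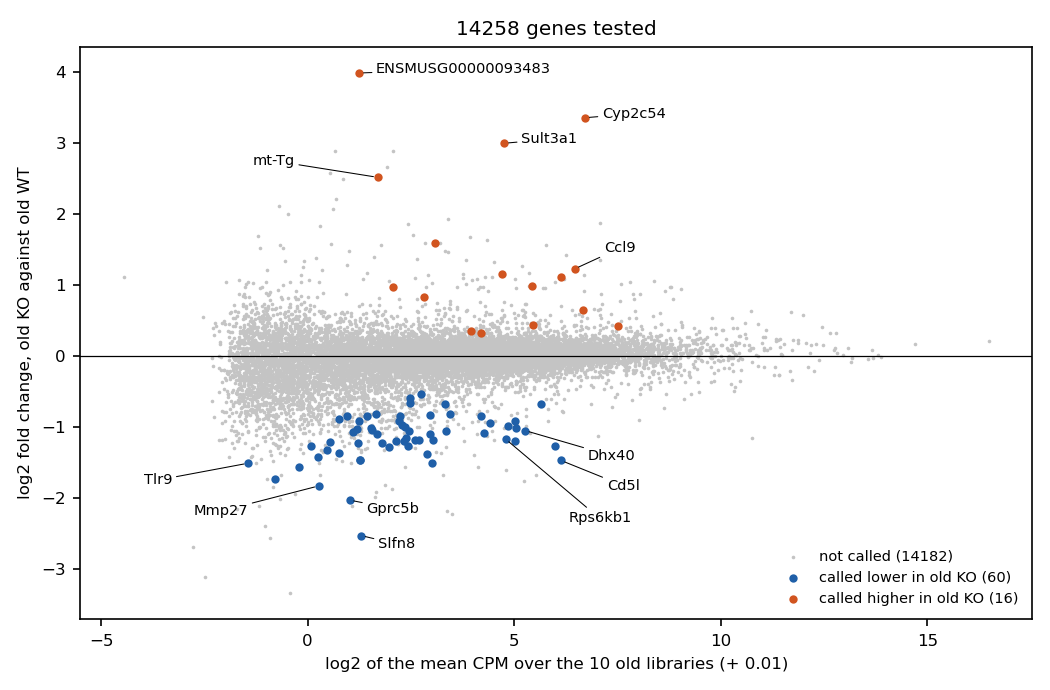
Each point is 1 of the 14258 tested genes, with the log2 of its mean CPM over the 10 old libraries on the x axis and its log2 fold change, old KO against old WT, on the y axis. The 60 called lower (blue) and 16 called higher (orange) genes stand out from a cloud centred on 0, from Slfn8 at −2.53 to ENSMUSG00000093483 at 3.99.

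The targeted gene checked the labels. Rps6kb1 (ENSMUSG00000020516, mouse build NCBIM37, chr11:86312373-86358307, minus strand) stood at 35.8, 34.6, 37.3, 38.8 and 45.4 CPM in old WT 1, 4, 5, 7 and 10 and at 16.3, 15.8, 16.9, 15.2 and 20.8 CPM in old KO 1, 2, 4, 5 and 6. Every knockout library lay below every wild-type library, with a log2 fold change of −1.17 (SE 0.0979, adjusted p = 8.54e-06), and the counts that remained are whole-gene counts that do not show which exons they came from. Rps6kb2, which encodes the related kinase S6K2, had a log2 fold change of −0.03 (adjusted p = 0.942), and Mtor one of −0.42 (adjusted p = 0.102). Of 32 genes listed for the S6K and mTORC1 pathway, Rps6kb1 was the 1 called (3.12%), and the list's median was −0.03.

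Besides Rps6kb1, 5 called genes lay close to it on chromosome 11. Within 5 Mb of its start, 6 of 100 tested genes were called (6%), against 0 of 114 between 5 and 10 Mb, 5 of 966 on the rest of chromosome 11 (0.518%) and 64 of 13051 on the other chromosomes (0.49%). Another 27 tested genes, 1 of them called, had no position in the annotation. The shares are given as a description, with no test of their difference. Leaving out Rps6kb1 itself, 5 of 99 were called (5.05%), namely Dhx40, Slfn8, Slfn9 and Ccl6, which fell, and Ccl9, which rose. For these genes, loss of S6K1 and sequence carried along with the targeted allele cannot be told apart.

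Dhx40, an RNA helicase of the DEAH box family, starts 262.9 kb from Rps6kb1 (ENSMUSG00000018425, chr11:86582348-86621198, minus strand). Its level was 51.3, 53.4, 50.6, 52.3 and 51.8 CPM in old WT and 26.2, 25.5, 23.6, 24.2 and 25.5 CPM in old KO, with a young WT mean of 50.7 CPM. The old KO libraries were thus tightly grouped well below both wild-type groups (log2 fold change −1.05, SE 0.0705, adjusted p = 4.84e-07). Other neighbours, chosen after their values were seen, were not called in the main edgeR fit. Tubd1, whose start is 0.2 kb away, averaged 2.56 CPM in old WT and 3.51 in old KO (edgeR adjusted p = 0.223). Gdpd1 averaged 1.04 and 0.486 CPM (adjusted p = 0.0978), and Unc45b, 3.63 Mb away, 1.47 and 0.687 CPM (adjusted p = 0.051, just over the threshold).

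**Figure D2:**
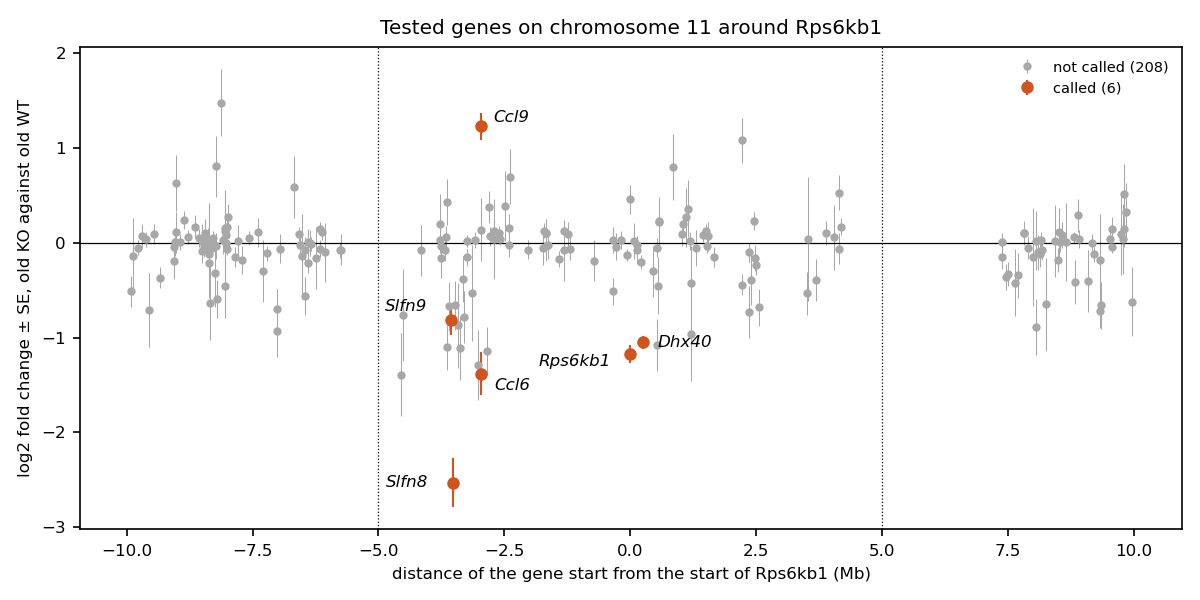
Log2 fold change with its standard error (y axis) of each tested gene within 10 Mb of Rps6kb1, against the distance of the gene's start from that of Rps6kb1 in Mb (x axis, dotted lines at 5 Mb). The 6 called genes (orange) lie inside 5 Mb, with Slfn8, Slfn9, Ccl6 and Ccl9 on 1 side, and none of the 114 genes between 5 and 10 Mb was called.

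The Schlafen genes, an interferon-inducible cluster named for roles in growth arrest of T cells, lie in the same stretch of chromosome 11. Slfn8 (ENSMUSG00000035208, chr11:82815660-82834312, minus strand) fell furthest of the 60 genes: 4.62, 3.98, 4.95, 3.3 and 4.04 CPM in old WT became 0.637, 0.763, 0.557, 1.09 and 0.557 CPM in old KO. The highest knockout library was still below the lowest wild-type library, and the young WT mean of 2.43 CPM lay between the groups (log2 fold change −2.53, SE 0.258, adjusted p = 0.000119). Slfn9 (chr11:82793131-82805332, minus strand) was at 3.72, 4.59, 3.76, 4.03 and 4.04 CPM in old WT and at 2.77, 2.87, 1.88, 1.76 and 2.18 CPM in old KO, again without overlap (log2 fold change −0.81, SE 0.165, adjusted p = 0.045). All 6 tested members of the family had a negative log2 fold change, and 2 were called (33.3%, against 0.421% of all genes called lower). Slfn4 had −1.11 (adjusted p = 0.174), Slfn5 −0.67 (adjusted p = 0.31) and Slfn2, named after its value was seen, −0.66 (adjusted p = 0.325). Slfn8 and Slfn9 are close in sequence, and how the 50 bp reads were shared between them is uncertain.

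The promoters of Slfn8, Slfn9 and of Oas3, another called interferon-inducible gene, are shown because each held the core of an interferon-stimulated response element. They are RefSeq sequences of build GRCm38.p6, running from 250 bases before to 50 bases after the annotated start and written 5′ to 3′ in the direction of the gene, with capitals marking the core (GAAA, any 2 bases, GAAA) on either strand. The Slfn8 promoter is chr11:83020761-83021060, the Slfn9 promoter chr11:82991781-82992080 and the Oas3 promoter chr5:120777610-120777909, all on the minus strand.
Slfn8: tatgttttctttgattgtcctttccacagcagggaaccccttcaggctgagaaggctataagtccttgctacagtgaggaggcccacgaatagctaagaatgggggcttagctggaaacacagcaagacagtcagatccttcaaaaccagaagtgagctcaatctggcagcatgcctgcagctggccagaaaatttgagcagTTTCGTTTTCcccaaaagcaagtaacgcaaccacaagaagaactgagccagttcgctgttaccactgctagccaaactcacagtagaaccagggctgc
Slfn9: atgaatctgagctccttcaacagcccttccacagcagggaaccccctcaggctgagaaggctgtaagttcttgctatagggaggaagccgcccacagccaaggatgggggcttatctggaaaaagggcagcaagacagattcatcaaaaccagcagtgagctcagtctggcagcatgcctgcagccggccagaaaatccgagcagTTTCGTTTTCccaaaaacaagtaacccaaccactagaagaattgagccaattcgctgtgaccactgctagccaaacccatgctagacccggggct
Oas3: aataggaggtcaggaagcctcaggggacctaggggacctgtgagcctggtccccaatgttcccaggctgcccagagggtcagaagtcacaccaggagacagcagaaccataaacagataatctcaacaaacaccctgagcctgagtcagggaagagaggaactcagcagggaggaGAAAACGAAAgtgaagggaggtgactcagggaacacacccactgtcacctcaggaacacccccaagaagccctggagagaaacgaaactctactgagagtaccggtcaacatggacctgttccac
In Slfn8 and Slfn9 the match is on the opposite strand and has the same letters, and in Oas3 it is on the gene's own strand. The same core, searched on both strands, was in 4 of the 45 genes that fell and have a promoter in the table (8.89%; the fourth was Pde1b), in 1 of 12 that rose (8.33%, Sult3a1), and in 1079 of 27025 genes overall (3.99%). A match describes these letters only, and no test was made of the shares.

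Of 30 tested Kupffer cell and macrophage markers, 10 fell in old KO and none rose (33.3%, against 0.421% of all genes called lower), 27 had a negative log2 fold change, and the list's median was −0.95. Their summed level ran from 941 to 1598 CPM in old WT and from 829.9 to 975 CPM in old KO, so that old WT 5, the lowest wild-type library, lay within the knockout range. Cd5l, a macrophage protein that binds IgM and supports macrophage survival, stood at 109.8, 153, 50.5, 94.8 and 106 CPM in old WT and at 41.1, 42.5, 32.8, 36.6 and 32.1 CPM in old KO. Clec4f, a lectin made by Kupffer cells, stood at 106, 135, 51.4, 69.2 and 88.5 CPM in old WT and at 41.3, 42.5, 30.5, 41.3 and 31.7 CPM in old KO. For both genes old WT 5 was the lowest wild-type library and still above all 5 knockout libraries (Cd5l log2 fold change −1.47, SE 0.263, adjusted p = 0.0247; Clec4f −1.27, SE 0.238, adjusted p = 0.0292). Vsig4, the complement receptor with which Kupffer cells capture bacteria from blood, averaged 44.8 CPM ± 16.5 (SD, n = 5) in old WT and 19.6 ± 3.29 in old KO, and its young WT mean was 26.9 CPM (log2 fold change −1.19, adjusted p = 0.0484 in edgeR's test).

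Other macrophage genes that fell handle scavenged material and iron. Slc11a1, which exports divalent metals from the phagosome, ranged from 5.81 to 11 CPM in old WT and from 2.44 to 4.72 CPM in old KO (log2 fold change −1.18, adjusted p = 0.0247). Hmox1, the heme-degrading heme oxygenase 1, was at 22.5, 27.6, 14.6, 27.7 and 24.5 CPM in old WT and at 13.4, 13.8, 13.3, 10.6 and 13.8 CPM in old KO, so the groups were separated by less than 1 CPM (log2 fold change −0.85, adjusted p = 0.0484). Folr2, a folate receptor of resident macrophages, Lgals3, the lectin galectin-3, Cd68, a lysosomal glycoprotein, and Lgmn, a lysosomal cysteine protease, fell with log2 fold changes of −1.18, −1.19, −1.18 and −0.68. Several established markers were not called in the main edgeR fit. Emr1, which encodes F4/80, ranged from 9.42 to 26.7 CPM in old WT and from 5.57 to 10.2 in old KO (log2 fold change −1.20, edgeR adjusted p = 0.118). Timd4 had −1.14 (adjusted p = 0.217) and Csf1r −1.04 (adjusted p = 0.101, without overlap between the groups), both named after their values were seen. Of 23 genes of recruited and lipid-associated macrophages, Lgals3 alone was called (4.35%, against 0.421% of all genes called lower). Of the 23, 21 had a negative log2 fold change, and their median was −0.53. At an unadjusted edgeR p under 0.05, 11 were lower, and 6 were lower without overlap (6.8% and 2.08% of all genes).

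All 3 genes of C1q, the molecule that starts the classical complement pathway and is made by tissue macrophages, fell. C1qa, C1qb and C1qc lie next to each other on the minus strand of chromosome 4. C1qb was at 45, 56.4, 32, 41.2 and 46.3 CPM in old WT and at 26.1, 22, 19.4, 25 and 16 CPM in old KO, without overlap, with a young WT mean of 31.4 CPM (log2 fold change −1.02, SE 0.175, adjusted p = 0.0223). C1qc and C1qa had log2 fold changes of −0.99 (adjusted p = 0.029) and −0.91 (adjusted p = 0.0459). Cfp, which encodes properdin, the stabiliser of the alternative pathway convertase, fell by 1.08 on the log2 scale with overlap between the groups, since old WT 5 had 14.3 CPM and old KO 2 had 15.1 CPM (adjusted p = 0.0452). In the list of 34 complement and coagulation genes, most of them products of hepatocytes, Cfp was the 1 that fell (2.94%), none rose, and the median was 0.09. The 3 C1q genes are not in that list but among the Kupffer cell and macrophage markers.

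**Figure D3:**
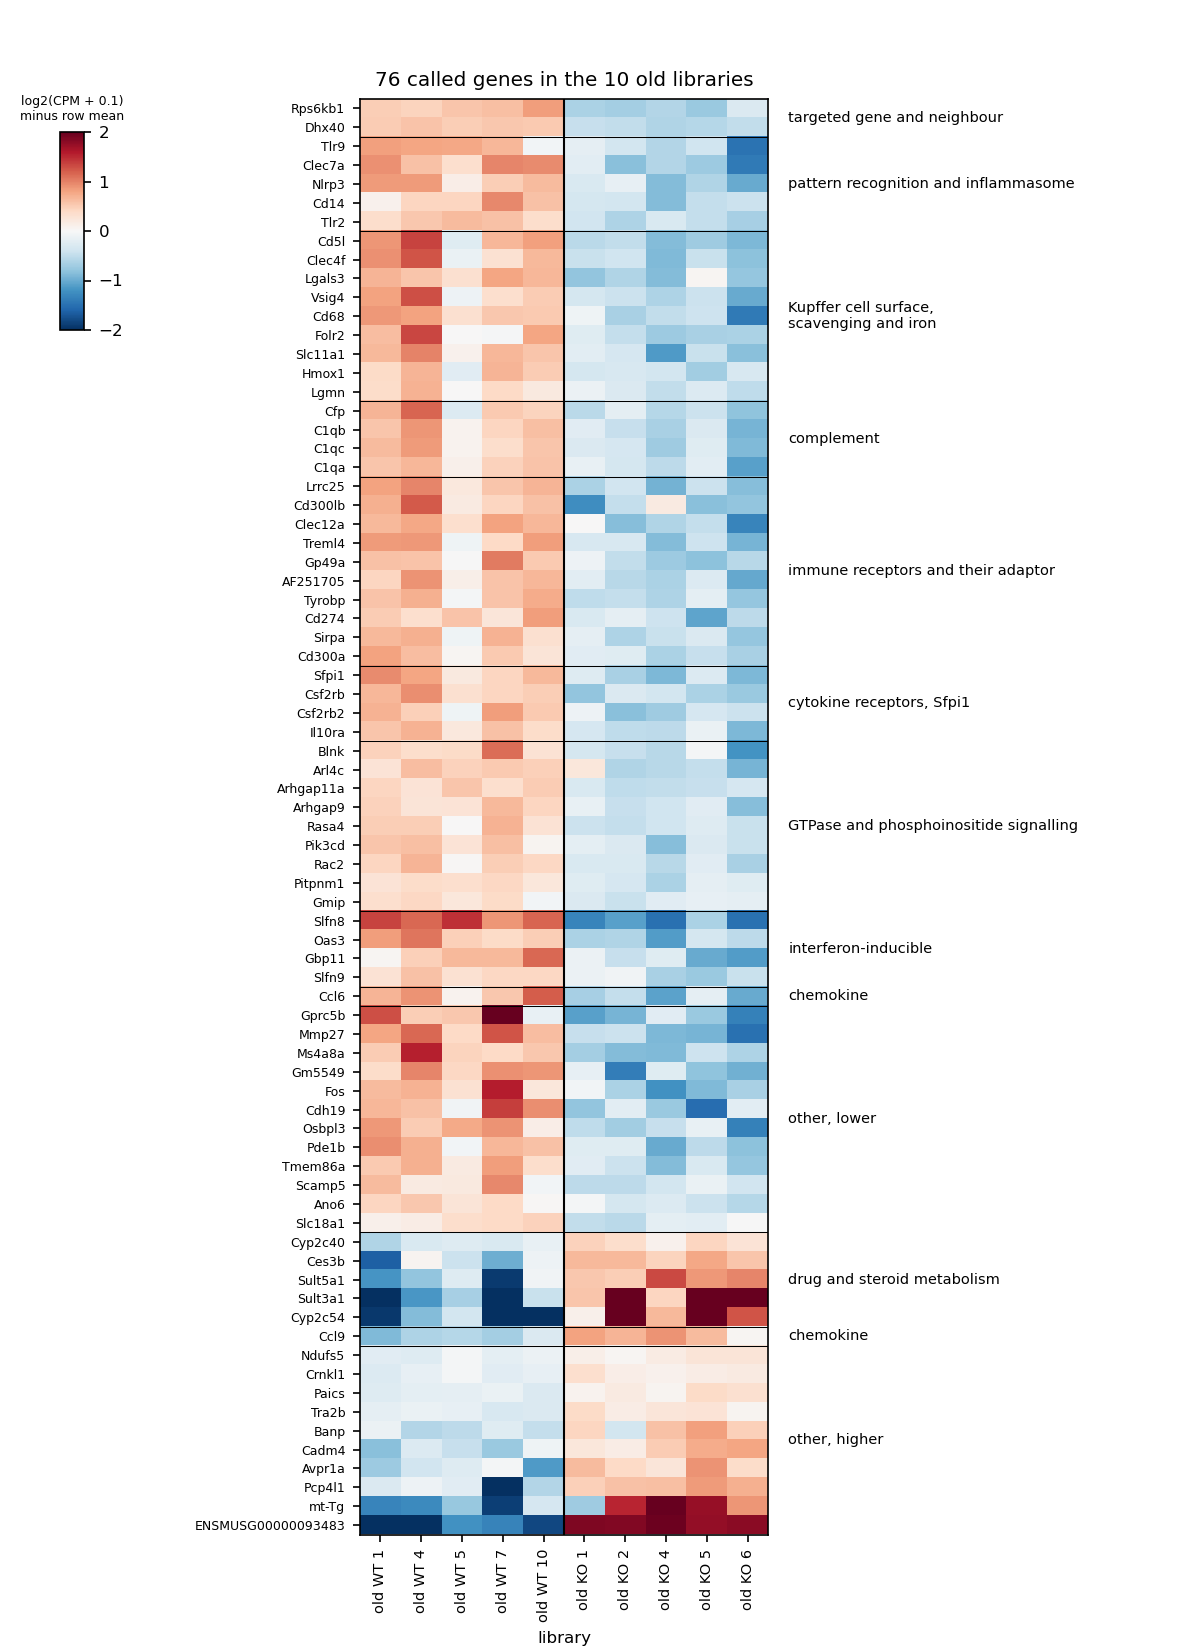
Heat map of the 76 called genes (rows, grouped by role) in the 10 old libraries (columns), coloured by log2(CPM + 0.1) minus the mean of the gene's row. In most macrophage and complement rows old WT 5 is the palest wild-type library and old WT 4 the strongest, and all 5 old KO libraries lie on the low side.

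Among the called genes, 5 that fell, Clec7a, Tlr2, Tlr9, Cd14 and Nlrp3, encode receptors or sensors of microbial products. All 5 were without overlap between the groups, as were 73 of all 76 called genes. Clec7a, the beta-glucan receptor dectin-1, was at 13.1, 10.4, 8.71, 13.7 and 13.4 CPM in old WT and at 5.92, 3.81, 4.54, 4.11 and 2.51 CPM in old KO, against a young WT mean of 6.12 CPM (log2 fold change −1.50, SE 0.283, adjusted p = 0.0292). Tlr2, the receptor for bacterial lipoproteins, was at 3.5, 3.98, 4.29, 4.11 and 3.49 CPM in old WT and at 2.06, 1.74, 2.18, 1.93 and 1.67 CPM in old KO, with a young WT mean of 2.33 CPM. The wild-type values of Tlr2 spread by little and its knockout values lay just under the young mean (log2 fold change −1.01, SE 0.193, adjusted p = 0.0295). Cd14, the lipopolysaccharide co-receptor, fell by 1.04 on the log2 scale (adjusted p = 0.0247). Nlrp3, the sensor of the inflammasome that activates caspase-1, averaged 1.49 CPM ± 0.31 in old WT and 0.612 ± 0.178 in old KO (n = 5 each, log2 fold change −1.26, edgeR adjusted p = 0.0384). Tlr9, which binds unmethylated CpG DNA, was under 1 CPM in all 10 libraries (log2 fold change −1.51, adjusted p = 0.0459), with wild-type levels of 0.625, 0.605, 0.596, 0.55 and 0.294 CPM.

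A further 10 genes that fell encode immune receptors, their ligands or adaptors, with log2 fold changes from −1.37 to −0.92. Groups by role were drawn from the called genes alone, so they have no share of tested genes called. They included Tyrobp, the ITAM adaptor DAP12, Sirpa, the macrophage receptor for the CD47 signal on other cells, and Cd274, the checkpoint ligand PD-L1. Tyrobp was at 14.1, 15.5, 9.18, 14.1 and 15.8 CPM in old WT and at 6.63, 6.72, 6.08, 8.22 and 5.48 CPM in old KO, again with old WT 5 the lowest of its group (log2 fold change −1.05). Cd274 was at 6.78, 5.97, 7.07, 5.57 and 8.49 CPM in old WT and at 3.78, 4.14, 3.51, 2.22 and 3.25 CPM in old KO, without overlap (log2 fold change −1.0, adjusted p = 0.0459). Lrrc25, a leucine-rich repeat protein of myeloid cells, fell by 1.37 on the log2 scale (adjusted p = 0.0103) and kept its call whichever library was left out. Cd300lb, Cd300a and Gp49a belong to families of near-identical receptors, so their counts are less certain.

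The cytokine receptor genes Csf2rb, Csf2rb2 and Il10ra fell, as did Sfpi1, which encodes a transcription factor of myeloid cells. Csf2rb, the beta chain shared by the receptors for GM-CSF, interleukin-3 and interleukin-5, was at 7.53, 9.1, 5.9, 6.38 and 6.73 CPM in old WT and at 2.7, 3.85, 3.64, 3.02 and 2.78 CPM in old KO. Its young WT mean was 7.76 CPM, so the knockout libraries lay under both wild-type groups (log2 fold change −1.15, SE 0.141, adjusted p = 0.000899). Csf2rb2, its near-identical neighbour, had −1.03 (adjusted p = 0.0364), and reads shared between these genes may not be assigned with certainty. Il10ra, the ligand-binding chain of the interleukin-10 receptor, averaged 6.45 CPM ± 0.84 in old WT and 3.3 ± 0.64 in old KO (n = 5 each, log2 fold change −0.97, edgeR adjusted p = 0.0295). Sfpi1, whose product is PU.1, was at 6.12, 5.44, 3.58, 4.22 and 4.93 CPM in old WT and at 2.58, 1.96, 1.63, 2.56 and 1.62 CPM in old KO, without overlap (log2 fold change −1.22, SE 0.229, adjusted p = 0.029).

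One of the called promoters with a PU.1 core, GAGGAAGT searched on both strands, is that of C1qc, which is shown with the match in capitals. It is the RefSeq window chr4:136892865-136893164 of GRCm38.p6, minus strand, and the match is on the strand opposite to the gene.
C1qc: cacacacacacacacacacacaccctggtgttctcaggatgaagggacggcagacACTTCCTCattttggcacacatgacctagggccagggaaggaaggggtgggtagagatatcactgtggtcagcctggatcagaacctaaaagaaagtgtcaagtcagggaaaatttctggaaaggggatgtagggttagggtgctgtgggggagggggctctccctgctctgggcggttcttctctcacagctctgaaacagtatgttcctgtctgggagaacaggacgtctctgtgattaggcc
This core was in the promoters of 4 of the 45 genes that fell (8.89%; Tlr9, Csf2rb2, C1qc and Ano6), 0 of 12 that rose, and 997 of 27025 genes overall (3.69%). No test was made of the shares, and PU.1 binding was not measured.

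Another 9 genes that fell act in small GTPase and phosphoinositide signalling, with smaller changes from −1.07 to −0.54. They included Pik3cd, the leukocyte catalytic subunit p110 delta of phosphoinositide 3-kinase, Rac2, the GTPase of the phagocyte oxidase, and Blnk, an adaptor below the B cell receptor that macrophages also use. Pik3cd averaged 6.08 CPM ± 0.982 in old WT and 3.38 ± 0.574 in old KO (n = 5 each, log2 fold change −0.84, edgeR adjusted p = 0.0337). Rac2 averaged 9.95 CPM ± 1.59 and 5.6 ± 0.706 (log2 fold change −0.83, edgeR adjusted p = 0.0459). Blnk was at 4.33 CPM in old WT 7, apart from 2.39 to 2.69 CPM in the other old WT libraries and 0.789 to 1.89 CPM in old KO (log2 fold change −1.07, adjusted p = 0.0377).

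Values for other cell types are given beside these. All 25 pan-leukocyte genes had a negative log2 fold change, with a median of −0.82, but Rac2 was the 1 called (4%). Their summed level was 261 to 350.0 CPM in old WT and 186 to 248 CPM in old KO, without overlap. Of the 25, 24 were lower at an unadjusted edgeR p under 0.05, and 14 were lower without overlap. Of the 30 Kupffer cell and macrophage markers 24 and 15 were, and of all genes 6.8% and 2.08%. Laptm5, a lysosomal protein of blood cells, had −0.82 and Vav1, an exchange factor for Rac, had −1.01 (adjusted p = 0.0506 for each), whereas Ptprc, the common leukocyte antigen CD45, had −0.78 (adjusted p = 0.323). None of 27 T cell, NK cell and cytotoxic genes was called, but 25 had a negative log2 fold change, and their median was −0.65. At an unadjusted edgeR p under 0.05, 5 of the 27 were lower. Of 6 neutrophil genes, none was called, with summed levels of 23.6 to 154 CPM in old WT and 24.7 to 58.3 CPM in old KO. Of 19 B cell and plasma cell genes none was called, 12 had a negative log2 fold change, and the median was −0.26. Their summed level was 493 to 771 CPM in old WT and 560.2 to 1485 CPM in old KO, led by Ighm at 607 CPM in old KO 1. Liver endothelial markers, another sinusoidal cell type, had a median of −0.01 over 25 genes with none called, and their sums were 419.6 to 694 CPM in old WT and 540.1 to 603 CPM in old KO. The part of these cell types in the genes that fell was not tested.

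**Figure D4:**
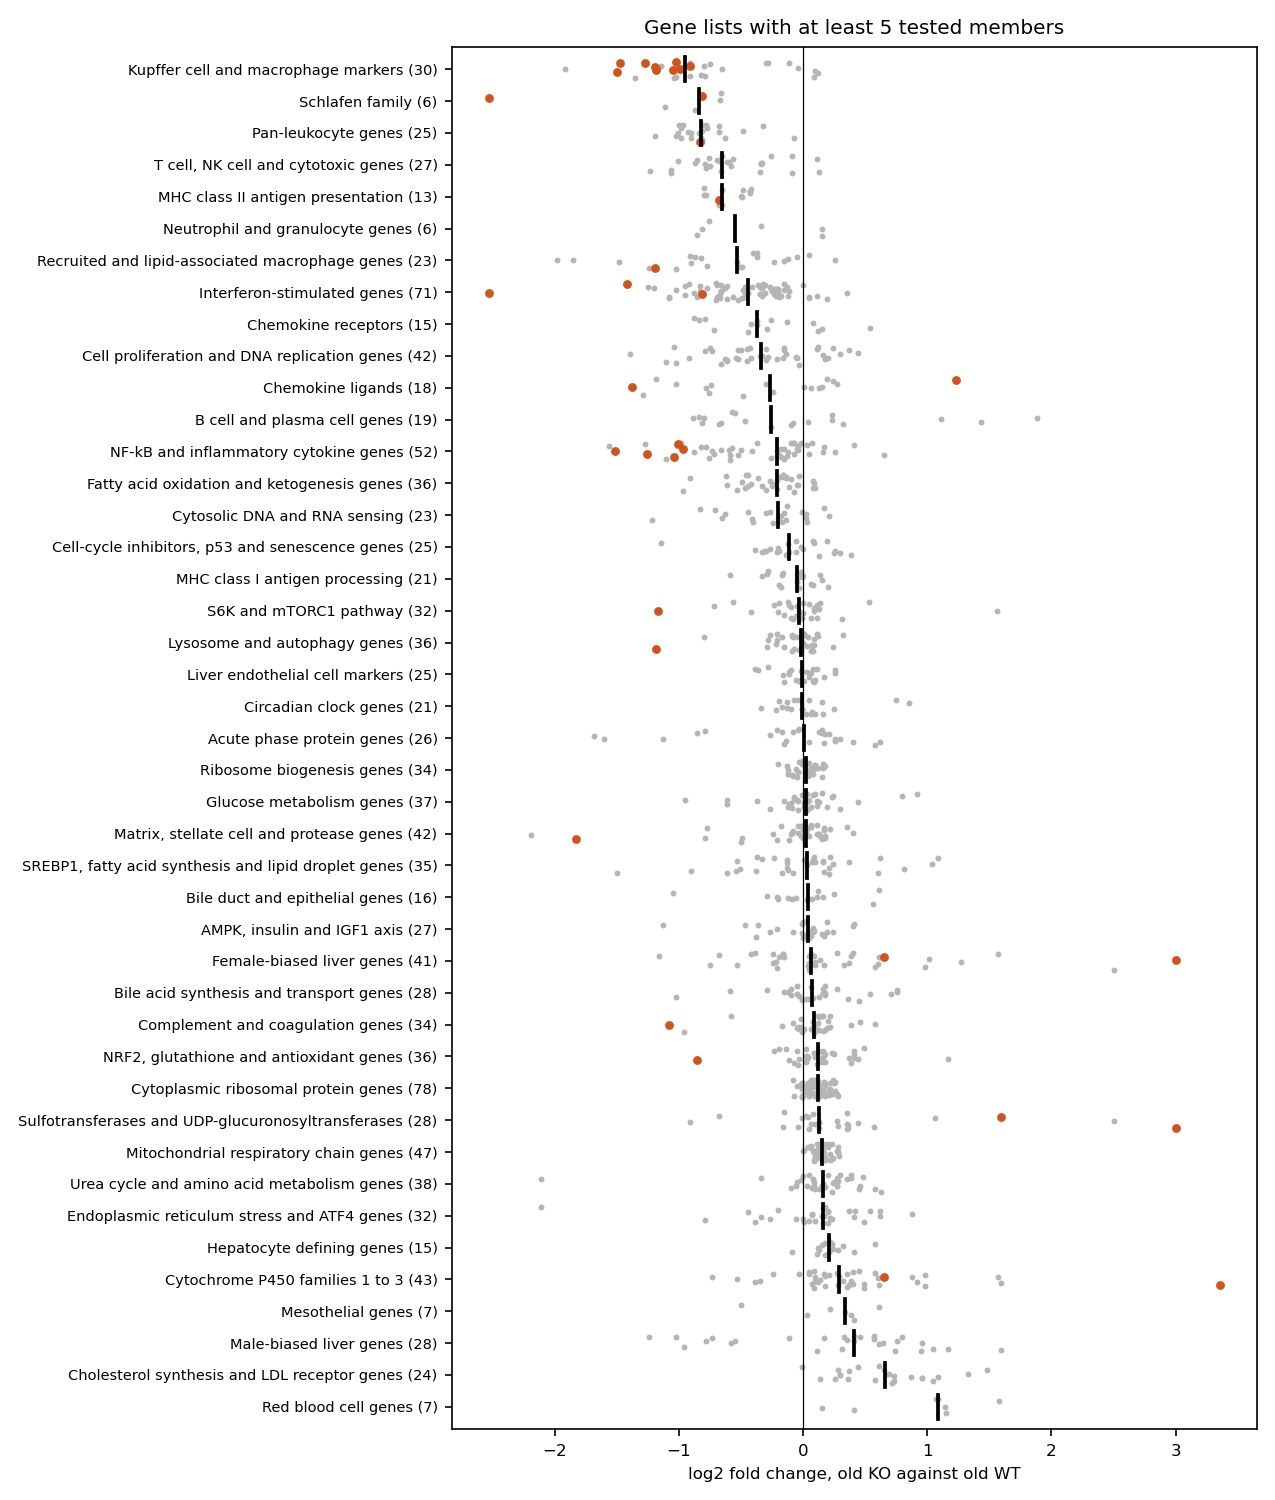
Log2 fold change, old KO against old WT (x axis), of every tested gene in each list with at least 5 tested members (rows, number tested in parentheses), with called genes in orange and black bars at the list medians. Medians run from −0.95 for Kupffer cell and macrophage markers to 1.09 for red blood cell genes, and 10 of the called genes are in the first of these lists.

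Most interferon-inducible genes had small negative log2 fold changes. Of 71 tested interferon-stimulated genes, 3 fell and none rose (4.23%, against 0.421% of all genes called lower). Of the 71, 66 had a negative log2 fold change, and the median was −0.44. The 3 were Slfn8, Slfn9 and Oas3, so that 2 of them lie near Rps6kb1. Oas3, which makes the oligoadenylates that activate RNase L, was at 1.94, 2.31, 1.49, 1.39 and 1.51 CPM in old WT and at 0.637, 0.654, 0.428, 0.797 and 0.696 CPM in old KO, with a young WT mean of 1.28 CPM. All old KO values of Oas3 were below the old WT range (log2 fold change −1.42, SE 0.299, adjusted p = 0.0459). Gbp11, a guanylate-binding protein outside the list, fell by 1.22 on the log2 scale (adjusted p = 0.0377). Irf7, the transcription factor that amplifies type I interferon, averaged 38.6 CPM ± 8.78 in old WT, 21.7 ± 3.21 in old KO and 18 in young WT, and its groups did not overlap, but the adjusted p was 0.053 (log2 fold change −0.83, n = 5, edgeR) and 0.00252 with DESeq2. Genes that sense cytosolic nucleic acids had a median of −0.20 with none of 23 called. Among them Tmem173, which encodes STING, had −0.18 (adjusted p = 0.795) and Irf3 0.17 (adjusted p = 0.344).

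Genes of antigen presentation by MHC class II summed to 289.8 to 363 CPM in old WT and to 144 to 294 CPM in old KO, ranges that overlap slightly. All 13 tested genes had a negative log2 fold change, with a median of −0.65. Of them 1, the protease Lgmn, was called (7.69%, against 0.421% of all genes called lower). MHC class I genes had a median of −0.05 with none of 21 called.

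Inflammatory signalling genes were described by a list of 52, of which 5 fell and none rose (9.62%, against 0.421% of all genes called lower). Of the 52, 44 had a negative log2 fold change, and the median was −0.21. At an unadjusted edgeR p under 0.05, 21 were lower, and 13 were lower without overlap (6.8% and 2.08% of all genes). The 5 were Tlr2, Tlr9, Cd14, Nlrp3 and Il10ra, receptors and a sensor described above. Neither Il1b nor Il6, a pair of macrophage cytokines, was called across genes. Il1b was at 5.59, 8.82, 4.12, 13.4 and 6.1 CPM in old WT and at 1.68, 7.01, 1.28, 0.964 and 1.76 CPM in old KO, where old KO 2 alone lay in the wild-type range (log2 fold change −1.56, adjusted p = 0.155). Without old KO 2, a fit singled out after that library's value was seen, the edgeR adjusted p of Il1b was 0.00493. Il6 was too low for the test across genes, with 12 counts over the 5 old WT libraries and 1 count over the 5 old KO libraries (two-sided exact permutation test of log2(CPM + 0.1), p = 0.0476). The smallest p that 5 against 5 libraries allow is 0.00794, and this floor is higher with 1 library left out. For Il6 the p ran from 0.0159 without old WT 5, the smallest possible in that comparison, to 0.0952 without old WT 1, 4, 7 or 10.

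Among 18 chemokine ligands 1 fell and 1 rose (11.1%, against 0.533% of all genes called). Both are neighbours in the C-C chemokine cluster of chromosome 11. Ccl6 (chr11:83401384-83406589, minus strand), which attracts macrophages, was at 10.4, 12.1, 6.8, 9.38 and 15.1 CPM in old WT and at 4.04, 4.61, 3.04, 5.7 and 3.16 CPM in old KO, against a young WT mean of 11.5 CPM (log2 fold change −1.38, SE 0.225, adjusted p = 0.0194). Ccl9 (chr11:83386421-83392138, minus strand), a related ligand of the receptor CCR1, was at 43.2, 52.1, 53.5, 49.8 and 64.9 CPM in old WT and at 139, 127, 148, 124 and 81.4 CPM in old KO, against a young WT mean of 36.6 CPM. The adjacent genes thus moved in opposite directions, both without overlap between the old groups (Ccl9 log2 fold change 1.23, SE 0.142, adjusted p = 0.000486). Ccl5, in the same cluster 3.01 Mb from Rps6kb1, had −1.29 (adjusted p = 0.144). The Ccl6 model is overlapped by a gene model on the opposite strand, E230016K23Rik, so its counts may include that gene.

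**Figure D5:**
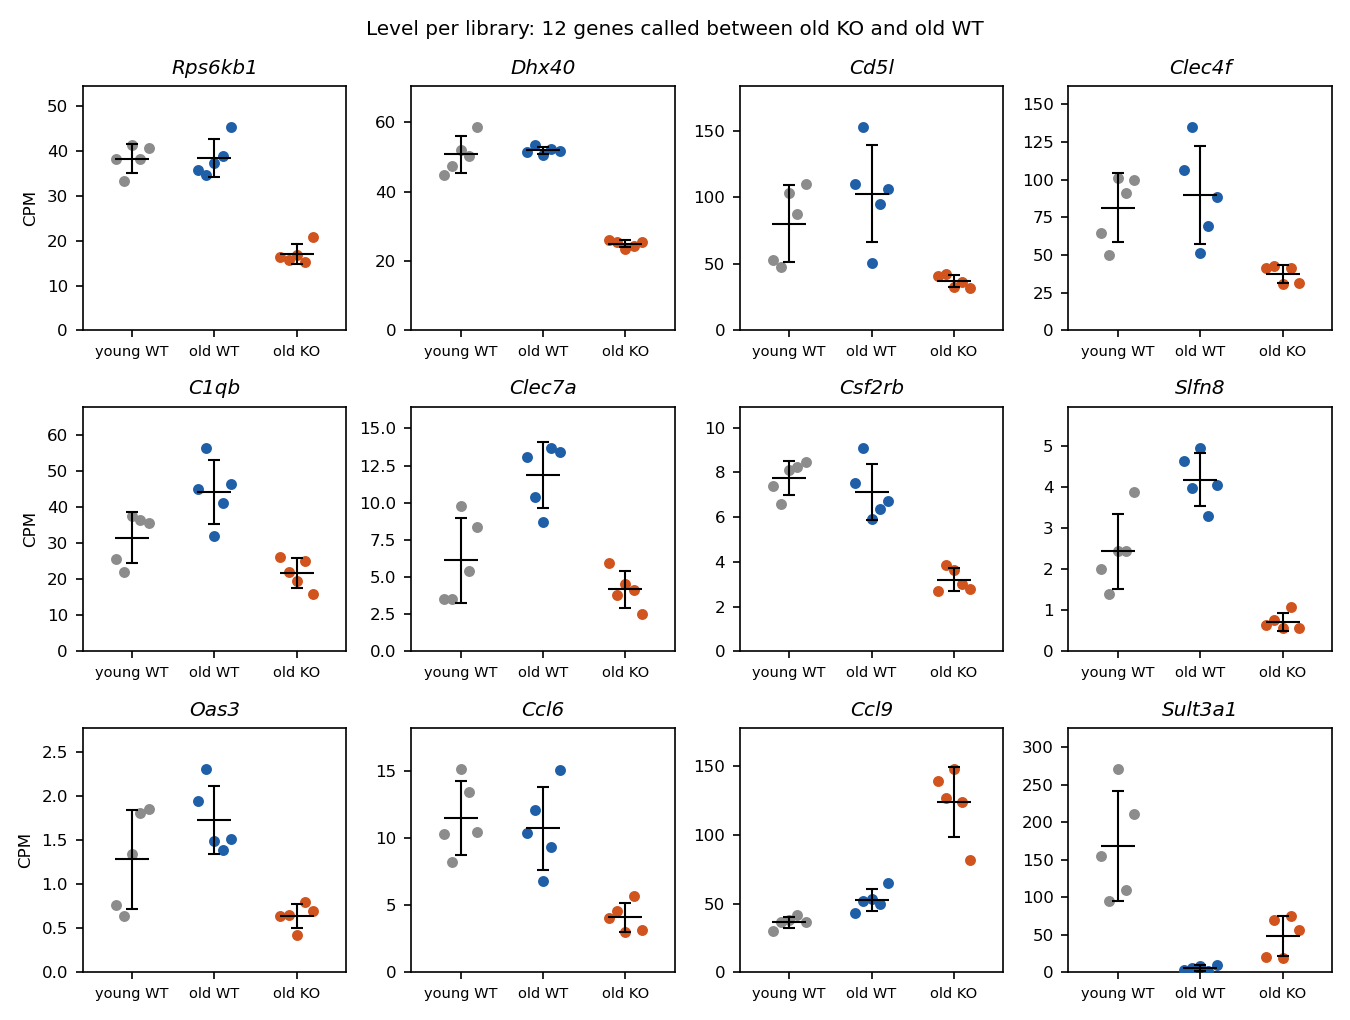
Level in CPM (y axis, from 0) of 12 called genes in every young WT (grey), old WT (blue) and old KO (orange) library, with bars for the mean and SD of each group (n = 5). Old KO lies apart from old WT in each panel, above it for Ccl9 and Sult3a1 and below it for the other genes.

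The other 12 genes that fell share no single role. Mmp27, a matrix metalloproteinase, was at 1.75, 2.28, 1.31, 2.46 and 1.54 CPM in old WT and at 0.674, 0.69, 0.471, 0.461 and 0.278 CPM in old KO, next to a young WT mean of 0.697 CPM (log2 fold change −1.83, SE 0.257, adjusted p = 0.00472). Tmem86a, a lysoplasmalogenase, was at 7.34, 8.36, 5.76, 9.16 and 6.51 CPM in old WT and at 4.31, 3.74, 2.74, 4.07 and 2.92 CPM in old KO, below the young WT mean of 7.76 CPM (log2 fold change −1.06, SE 0.157, adjusted p = 0.00819). Neither gene had any overlap between the old groups, and both were called whichever library was left out. Gprc5b, an orphan G protein-coupled receptor, depended more on single animals: old WT 7 had 6.89 CPM and old WT 10 had 1.32 CPM, against 0.511 to 1.24 CPM in old KO (log2 fold change −2.03, adjusted p = 0.0317). Fos, the immediate early transcription factor, also peaked in old WT 7, at 6.23 CPM against 2.39 to 3.34 CPM in the other old WT libraries and 0.814 to 1.95 CPM in old KO (log2 fold change −1.47, adjusted p = 0.0337). Cdh19, a cadherin, and Osbpl3, an oxysterol-binding protein, fell by 1.46 and 1.28 on the log2 scale (adjusted p = 0.0452 and 0.0223). Gprc5b is overlapped by Iqck on the other strand, so its counts too may include those of another gene.

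Of the 16 genes that rose, 5 encode enzymes of drug and steroid metabolism. Cyp2c54 (ENSMUSG00000067225, chr19:40112431-40148301, minus strand) was at 12.3, 25.6, 36.2, 9.9 and 9.48 CPM in old WT, at 50.6, 227, 74, 497 and 113 CPM in old KO and at a mean of 192 CPM in young WT. Sult3a1, a sulfotransferase (ENSMUSG00000069668, chr10:33583741-33599322, plus strand), was at 3.25, 6.22, 8.92, 1.32 and 10.4 CPM in old WT, at 20.9, 70.3, 19.1, 74.5 and 56.7 CPM in old KO and at a mean of 168 CPM in young WT. Old KO libraries of both genes spread widely, yet none reached down to old WT (Cyp2c54 log2 fold change 3.36, SE 0.583, and Sult3a1 3.0, SE 0.512, adjusted p = 0.0223 for each). Sult5a1, another sulfotransferase, was at 3, 3.95, 5.73, 1.76 and 6.54 CPM in old WT and at 10.1, 9.7, 17.4, 12.6 and 13.7 CPM in old KO (log2 fold change 1.59, SE 0.304, adjusted p = 0.0295). Ces3b, a carboxylesterase, was at 20.2, 65.5, 46.4, 31.9 and 58.6 CPM in old WT and at a narrow 98.7, 98.9, 85.9, 108 and 92.6 CPM in old KO, with a young WT mean of 142 CPM (log2 fold change 1.12, adjusted p = 0.0459). Cyp2c40 rose least, from 64.9, 80.3, 83.2, 80.2 and 88.9 CPM to 137, 127, 105, 134 and 119.7 CPM, and its young WT mean was 129 CPM (log2 fold change 0.65, SE 0.112, adjusted p = 0.0223). Reads of the Cyp2c and sulfotransferase families may be shared among near-identical members, so values of single members are uncertain.

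Over the whole families, 2 of 43 cytochrome P450 genes of families 1 to 3 rose (4.65%, against 0.112% of all genes called higher), none fell, 37 had a positive log2 fold change, and the median was 0.29. Their summed level was 14328 to 21548 CPM in old WT and 19837 to 23666 CPM in old KO. Of 28 sulfotransferases and UDP-glucuronosyltransferases, 2 rose (7.14%), none fell, and the median was 0.13. Cyp2f2, which had 0.98 (edgeR adjusted p = 0.0679), Cyp2d9, which had 1.59 (adjusted p = 0.168), and Gm4794, which had 2.50 (adjusted p = 0.108), were not called in the main fit. The genes known to be higher in female than in male liver had a median of 0.06 over 41 genes with 2 called, both higher (4.88%), and the male-biased genes one of 0.41 over 28 with none called.

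Among the remaining genes that rose, Avpr1a, the vasopressin receptor of hepatocytes, was at 24.2, 30.7, 33.6, 38.9 and 18.2 CPM in old WT and at 61.9, 52.8, 47.4, 74.7 and 51.8 CPM in old KO, with a young WT mean of 36.8 CPM (log2 fold change 0.99, SE 0.174, adjusted p = 0.0247). Paics, an enzyme of purine synthesis, was at 150.1, 156, 159, 164 and 147 CPM in old WT and at 189, 204, 187, 235 and 225 CPM in old KO, a small rise without overlap (log2 fold change 0.42). Tra2b, a splicing regulator, rose by 0.44 on the log2 scale (adjusted p = 0.0223), and Ndufs5, a subunit of respiratory complex I, by 0.33 (adjusted p = 0.0459), with 15.3 to 17.7 CPM in old WT and 18.8 to 21.8 CPM in old KO. The mitochondrial glycine tRNA mt-Tg was at 0.75, 0.782, 1.16, 0.476 and 1.58 CPM in old WT and at 1.2, 6.03, 9.34, 7.04 and 3.85 CPM in old KO (log2 fold change 2.52, adjusted p = 0.029). Old KO 1 overlapped the wild types there, and messenger RNA libraries capture transfer RNA poorly. ENSMUSG00000093483, which has no symbol or position in the annotation used, had the largest fold change of all 76: 0.0937, 0.178, 0.447, 0.403 and 0.257 CPM in old WT against 4.53, 4.47, 4.84, 4.19 and 4.32 CPM in old KO (log2 fold change 3.99, SE 0.262, adjusted p = 4.84e-07).

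None of the genes listed for ribosomes, respiration, fatty acid oxidation or cholesterol synthesis was called. Of 78 cytoplasmic ribosomal protein genes none was called, 67 had a positive log2 fold change, and the median was 0.12, with Rps12 at 0.28 (adjusted p = 0.155) and Rpl36 at 0.26 (adjusted p = 0.174). For 34 ribosome biogenesis genes the median was 0.02 with none called, and for 27 genes of the AMPK, insulin and IGF1 axis 0.04 with none called. Mitochondrial respiratory chain genes had 46 of 47 positive log2 fold changes but a median of 0.15 and no call (Ndufs5 is not in this list). Fatty acid oxidation genes had 32 of 36 negative ones, a median of −0.21 and no call. Cholesterol synthesis genes had the largest median of the metabolic lists, 0.66 over 24 genes, with none called. Mvd, a decarboxylase of the mevalonate pathway, had 1.48 (adjusted p = 0.217), and the summed level of the list ran from 1742 to 2995 CPM in old WT and from 1561 to 4210.1 CPM in old KO, so the groups overlapped. The hepatocyte-defining genes themselves had a median of 0.21 over 15 genes with none called.

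None of 25 cell-cycle inhibitor, p53 and senescence genes was called, and their median was −0.11. Cdkn1a, which encodes p21, was at 37.2, 35.6, 44, 43.2 and 76.8 CPM in old WT and at 15.5, 72.7, 17.3, 123 and 51.7 CPM in old KO, a spread in old KO that covered the whole wild-type range (log2 fold change 0.25, adjusted p = 0.912). Cdkn2a had 35 counts over the 5 old WT libraries and 31 over the 5 old KO libraries (two-sided exact permutation test, p = 0.96), too few to show any but a large difference. Endoplasmic reticulum stress and ATF4 genes had a median of 0.16 over 32 genes with none called, Hspa5, the chaperone BiP, at 0.41 (adjusted p = 0.521) and Ddit3, which encodes CHOP, at 0.16 (adjusted p = 0.755). Proliferation genes had a median of −0.34 over 42 genes with none called, with Mki67 at −0.75 (adjusted p = 0.262) and Cdk1 at −1.39 (adjusted p = 0.141). Acute phase protein genes had a median of 0.01 over 26 genes, and Saa1 had −1.68 (adjusted p = 0.264), or −0.67 without old WT 10, which stood at 212 CPM against at most 51 in the other old WT libraries. Of 42 matrix, stellate cell and protease genes, Mmp27 was the 1 called (2.38%), and the median was 0.02.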

How the data were processed

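Liver RNA of 15 mice was made into stranded messenger RNA libraries and read as single 50 bp reads. The authors mapped reads with TopHat to mouse build mm9 (NCBIM37) and counted them per gene with HTSeq, and the deposited values are raw counts. The submitters' processing notes also name CASAVA, TopHat2 2.0.11 and DESeq2 1.18.1. The strand setting and annotation release of the counting are not given in the sources used here. Gene symbols and positions came from GENCODE on NCBIM37, and 75 of 76 called genes had a position.

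Genes passing edgeR's filterByExpr were fitted over all 15 libraries (3 groups, TMM scaling, quasi-likelihood test, edgeR 4.0.16, R 4.3.3), with old KO against old WT as the contrast. A gene was called at a Benjamini-Hochberg adjusted p under 0.05. CPM used TMM-scaled library sizes. Genes under the filter were compared on log2(CPM + 0.1) by a two-sided exact permutation test over 252 assignments. Promoters came from RefSeq tables. Scripts were tested on simulated data. Alternatives were DESeq2 1.42.0, limma voom 3.58.1, other scalings and filters, the old libraries alone, a replicate block, other pseudocounts, and leaving out each library. Replicate numbers shared by the old groups (1, 4 and 5) were not treated as pairs in the main fit. Deviations of these libraries from their group means correlated at 0.00205, 0.0231 and 0.0225. For pairs with different numbers the correlations ran from −0.267 to 0.355. These values cannot show whether mice were related or handled together.

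Named were any of the 76 called genes (full values for the 12 largest rises and 18 largest falls with a mean of at least 1 CPM and for called genes of a list or within 5 Mb of Rps6kb1), up to 4 genes of each list with the smallest p, a fixed set that the study measured, and genes stated as chosen after their values were seen. The roles given to called genes were assigned after the calls. The gene lists and comparisons were chosen with earlier results of these data known. Each library was taken as 1 mouse, since the study counts n as individual mice. The edgeR p-values set the difference between the old groups against a spread between mice estimated from all 15 libraries, young WT included. Totals of 21984658 to 31990482 counts per old library set the counting precision, which is lowest for the genes with the fewest counts.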

Additional observations from a re-analysis of the deposited data

Results flagged for a closer look

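Within the 2 old groups of 5 libraries, 1 library stood apart from the others (gap to the nearest library over 0.71 of the group's range) in 13 of 242 groups examined for 121 genes. Chance alone gives about 5% of groups.

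In old WT, the library apart was the highest for Unc45b (1.91 CPM in old WT 1, nearest 1.43), Ms4a8a (1.6 CPM in old WT 4, nearest 0.735), Cdkn1a (76.8 CPM in old WT 10, nearest 44) and Saa1 (212 CPM in old WT 10, nearest 51). Old WT 7 was the highest for Fos (6.23 CPM, nearest 3.34) and Blnk (4.33 CPM, nearest 2.69). It was the lowest for Tyrobp (9.18 CPM in old WT 5, nearest 14.1) and Tlr9 (0.294 CPM in old WT 10, nearest 0.55).

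In old KO, Il1b was at 7.01 CPM in old KO 2 (nearest 1.76), Lgals3 at 4.65 CPM in old KO 5 (nearest 2.94) and Ighm at 607 CPM in old KO 1 (nearest 161). Hmox1 was low at 10.6 CPM in old KO 5 (nearest 13.3) and Cox6c, a subunit of cytochrome c oxidase, at 97.9 CPM in old KO 1 (nearest 119).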

How the results depend on the processing

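The 76 calls (16 higher, 60 lower) became 305 (88 and 217) with DESeq2, which called all 76, and 23 (7 and 16) with limma voom, all 23 among the 76. A replicate block on the shared numbers left 6 (2 and 4), of which 5 were among the 76. Leaving out 1 library gave 9 to 108 calls, 2 to 20 higher and 7 to 90 lower, with the fewest without old WT 4 and the most without young WT 2. All 76 genes kept their direction in every alternative run that tested them. Runs with another filter or fewer libraries need not have tested all 76. Scaling by DESeq2 size factors or the upper quartile moved the median of all genes by 0.01 and −0.02, and the upper quartile turned the small medians of acute phase, matrix and glucose genes to 0.00 or just below it (−0.00, −0.01 and −0.00). Of the 100 tested genes within 5 Mb of Rps6kb1, DESeq2 called 14, beside 305 of 14258 over all genes. The main fit called 6 of the 100 and 76 of the 14258. Of the genes under the filter, Cxcl2 (−0.01) ran from −0.20 to 0.22 with 1 library left out (0.11, 0.20 and 0.16 in fits lacking old WT 10, old KO 2 and old KO 6), Cdkn2a (0.02) from −0.18 to 0.15 (−0.01, −0.07 and −0.11 without old KO 1, 2 and 5), and Il6 (−0.72) from −0.93 to −0.66, with p under 0.05 kept only without old WT 5. Among named genes, Col1a1 (0.02) ran from −0.22 to 0.41 without single libraries, Cdkn1a (0.25) was −0.13 with limma voom and −0.28 to 0.49 without single libraries (lowest without old KO 5), Cd4 (−0.33) was 0.53 with the replicate block, and Rps6kb2 (−0.03) ran from −0.08 to 0.00 without single libraries. None of these 4 was called in any setting quoted, and the cause was not tested.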

Other observations

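Red blood cell genes had the largest median of any list, 1.09 over 7 tested genes, all with a positive log2 fold change and none called. Hbb-b1 and Hba-a1, the adult globins, had 1.15 (adjusted p = 0.162, edgeR) and 1.14 (adjusted p = 0.184). The list's summed level was 80.3 to 166 CPM in old WT and 108 to 401 CPM in old KO, so the groups overlapped.

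Immunoglobulin genes varied between animals: Ighm had a log2 fold change of 1.88 (adjusted p = 0.146) and Igkc 1.43 (adjusted p = 0.212). Skeletal muscle genes summed to 0.625 to 1.03 CPM in old WT and reached 31.5 CPM in 1 old KO library.

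Hepatic retinol and thyroid hormone carrier Ttr had 0.23 (adjusted p = 0.484). Genes of NRF2, glutathione and antioxidant defence had 27 of 36 positive log2 fold changes, a median of 0.12 and 1 call, Hmox1, which fell (2.78%). Urea cycle and amino acid genes had 32 of 38 positive ones, a median of 0.16 and none called, and circadian clock genes a median of −0.01 over 21 with none called.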
